A study of Mus musculus with 12 samples.

Results

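Entpd1, Nt5e and Pde3b were followed through the open chromatin of sorted mouse CD4+ T cells. The first encodes CD39, a surface enzyme that breaks down extracellular ATP and ADP to AMP, and the second encodes CD73, which turns that AMP into adenosine. Pde3b encodes a phosphodiesterase that degrades cyclic AMP inside the cell. Every peak was taken that touched 1 of 3 windows of the genome build NCBIM37: chr19:40640000-40840000 for Entpd1, chr9:88180000-88300000 for Nt5e and chr7:121500000-121720000 for Pde3b. Overlapping or touching peaks of the 12 libraries were merged, which gave 27 regions in these windows of 40457 in all. Of the 27, 22 had a peak in at least 2 libraries, of 32787 such regions in all. The Entpd1 window held 11 regions and the Pde3b window 5, all of them in at least 2 libraries. The Nt5e window held 11, of which 6 were in at least 2 libraries. Regions are numbered from 1 in order of position within each window.

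Adenosine binds surface receptors that, through G proteins, change the production of cyclic AMP, and phosphodiesterases bring cyclic AMP down again. Regulatory T cells (Treg) are known for carrying CD39 and CD73 on their surface, and in T cells cyclic AMP restrains activation. Repression of Pde3b by Foxp3, the transcription factor that defines the Treg lineage, is known from earlier work in mouse Treg.

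The assay was ATAC-seq, where a transposase inserts adapters into accessible DNA, on 100000 splenic CD4+ T cells per library. All animals carried a Foxp3-IRES-EGFP reporter, and cells were sorted as GFP-positive Treg or GFP-negative conventional T cells (Tconv). WT animals were compared with animals in which an enhancer named Lrrc32+ 70k was deleted (KO), so that both sorted cell types of a KO animal came from the deleted line. Lrrc32 encodes GARP, which docks latent TGF-beta on Treg. Each of the groups WT Treg, KO Treg, WT Tconv and KO Tconv had 3 libraries. The labels give no age, sex or strain, and they do not say that libraries came from separate animals. A p-value here therefore speaks only of the variation among these libraries, which may be technical. The markers fixed for the sorted cell types were not placed, for lack of an annotation of NCBIM37.

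In 11 libraries the authors' lists held between 21269 and 27605 peaks, and in KO Treg replicate 2 the list held 5262. That library had a peak in 1 region of each window, and results that rest on it are given with and without it. Read depth is unknown. A deposited list holds presence and strength of peaks, so that fewer open cells and weaker opening in every cell cannot be told apart. The strength of a peak is given as the percentile of its −log10 p within its own list, where 100 marks the strongest peak, or as the peak caller's fold over background. Both are the authors' values for a peak in its own list.

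No genome of NCBIM37 was used here, so the sequences of the regions are not shown and no region was assigned to an exon, an intron or a promoter. The 3 windows can also hold elements of other genes. In the GRCm38.p6 gene table, the nearest protein-coding genes on the lower and higher side are Tctn3 and Cc2d2b for Entpd1, Tbx18 and Snx14 for Nt5e, and Psma1 and Cyp2r1 for Pde3b.

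The promoters that RefSeq gives for GRCm38.p6 are shown because each gene's transcription starts there and because cyclic AMP acts on genes through a known element. Of the 3 genes, Entpd1 with 2 promoters and Nt5e with 1 matched the table. The sequences run 5′ to 3′ on the plus strand from 250 bases before the start site to 50 after it. The capitals mark TGACG, the first letters of the cyclic AMP response element, or its reverse complement CGTCA. Entpd1 promoter 1 lies at chr19:40612116-40612415, Entpd1 promoter 2 at chr19:40659520-40659819 and the Nt5e promoter at chr9:88327359-88327658.
Entpd1 promoter 1: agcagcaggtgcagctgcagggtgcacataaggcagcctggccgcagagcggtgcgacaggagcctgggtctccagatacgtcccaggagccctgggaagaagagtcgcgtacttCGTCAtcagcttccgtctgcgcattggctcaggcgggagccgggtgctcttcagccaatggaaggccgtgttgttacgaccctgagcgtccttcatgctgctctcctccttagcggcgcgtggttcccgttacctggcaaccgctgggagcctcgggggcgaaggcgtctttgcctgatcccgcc
Entpd1 promoter 2: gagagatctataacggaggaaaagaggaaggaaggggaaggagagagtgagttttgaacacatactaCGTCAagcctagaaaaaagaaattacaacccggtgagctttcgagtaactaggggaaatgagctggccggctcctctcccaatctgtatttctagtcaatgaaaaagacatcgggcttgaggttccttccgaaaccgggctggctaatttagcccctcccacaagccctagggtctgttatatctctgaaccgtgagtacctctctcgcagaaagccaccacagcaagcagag
Nt5e promoter 1: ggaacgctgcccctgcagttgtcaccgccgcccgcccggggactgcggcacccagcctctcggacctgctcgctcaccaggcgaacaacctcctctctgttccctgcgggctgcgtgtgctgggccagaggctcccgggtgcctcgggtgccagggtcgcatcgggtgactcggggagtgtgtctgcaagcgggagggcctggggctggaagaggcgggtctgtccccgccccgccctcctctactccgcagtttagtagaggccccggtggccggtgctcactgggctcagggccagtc
Both Entpd1 promoters held 1 match to TGACG on either strand, and the Nt5e promoter held 0. Of all 32851 promoters in the table, 20.8% held it. The full element TGACGTCA, held by 1.79% of all promoters, was in none of these 3. The promoters also differed in base composition, with a G and C content of 64% in Entpd1 promoter 1, 48.7% in Entpd1 promoter 2 and 71.0% in the Nt5e promoter, beside a median of 52.7% over all promoters. The builds were not aligned, so no region was matched to a promoter.

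The members were shared between Treg and Tconv about as often as regions elsewhere. A peak in all 11 libraries other than KO Treg replicate 2 was found in 11 of the 22 regions, beside 44.9% of all regions. By gene these were 5 of 11 Entpd1 regions, 3 of 6 Nt5e regions and 3 of 5 Pde3b regions. A region was called enriched in a cell type when at least 5 more of its 6 libraries had a peak than of the other type's. This rule called 3.2% of all regions Treg-enriched and 3.55% Tconv-enriched. It called 1 of the 22 member regions Treg-enriched, Nt5e region 6, and 0 Tconv-enriched. Fisher's exact test with Benjamini-Hochberg adjustment over all 32787 regions passed 0 regions at 0.05 (smallest adjusted p = 0.123), with 2213 at an unadjusted p under 0.05, among them 1 member. With 6 against 6 libraries, an unadjusted p under 0.05 needs the same lead of at least 5. These are therefore the regions already called, and not a second result. The members' share of calls was thus close to that of all regions.

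**Figure D1:**
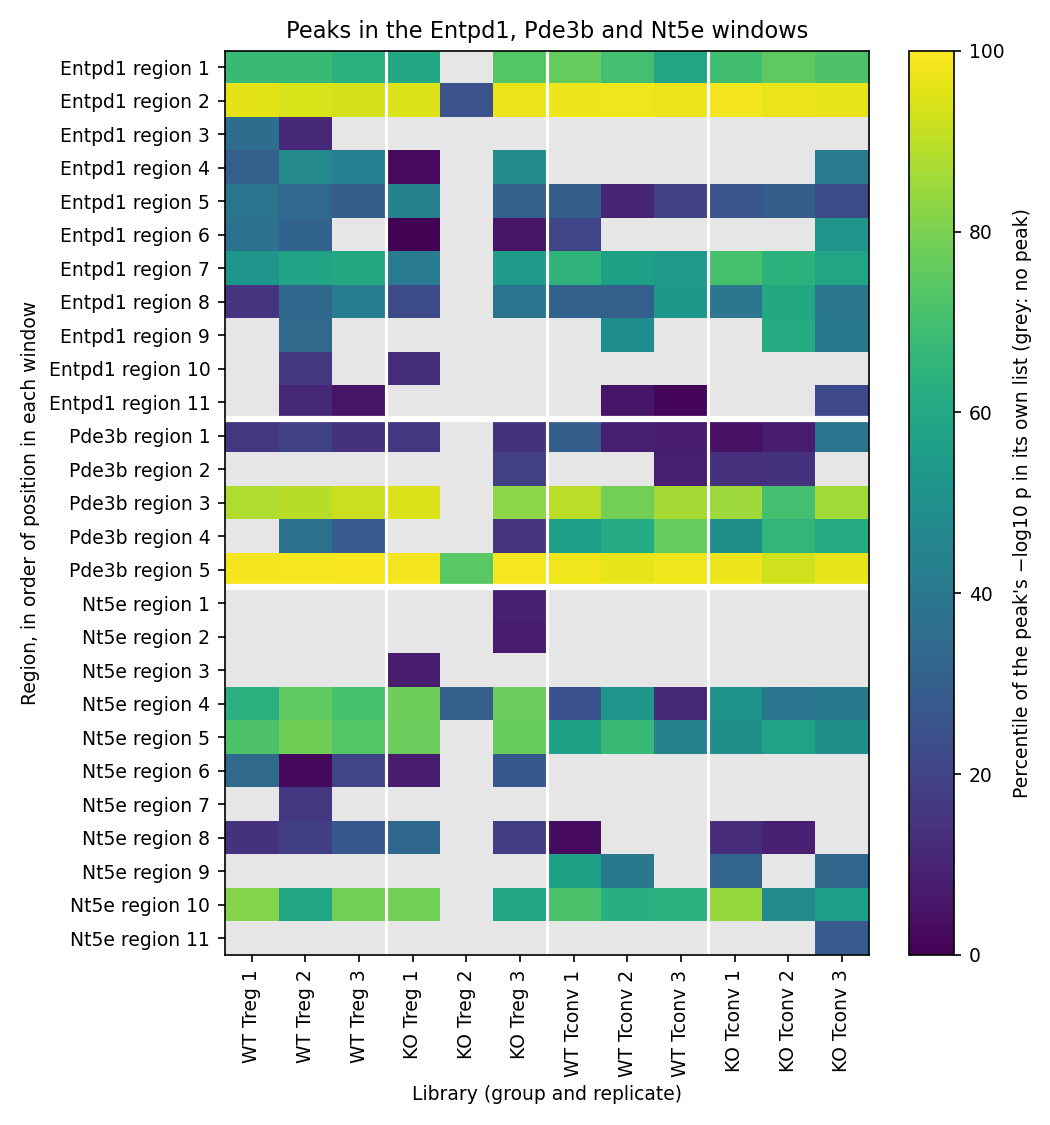
Each row is 1 of the 27 regions and each column 1 library, with the color giving the percentile of the region's strongest peak in its own list and grey marking no peak. Entpd1 region 2 and Pde3b region 5 are high in all libraries but KO Treg replicate 2, Nt5e regions 4 and 5 are higher in the other Treg libraries than in Tconv, and Nt5e region 6 has peaks in 5 Treg libraries and no Tconv library.

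The window of Nt5e, the gene of the enzyme that makes adenosine from AMP, held the Treg-enriched region. It also held the 2 members that set the cell types apart by the percentile of −log10 p. They were 2 of the 8 members ranked in 11 libraries after limiting their lists to equal length. These 3 regions lay within 5554 bp: region 4 from 88222214 to 88222844, region 5 from 88223885 to 88224696 and region 6 from 88227256 to 88227767 on chromosome 9. Regions 4 and 5 had peaks in both cell types and ranked higher in the Treg libraries other than KO Treg replicate 2, and region 6 had peaks in Treg alone.

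Nt5e region 4 had a peak in all 12 libraries. Its percentiles were 63.4, 75.4 and 70.8 in WT Treg, 78.0, 30.2 and 77.2 in KO Treg, 25.3, 52.0 and 11.4 in WT Tconv, and 50.9, 39.2 and 40.3 in KO Tconv. Every Treg library other than KO Treg replicate 2 lay above every Tconv library. That library, the second of the KO Treg values, lay within the Tconv range, and its list was shorter than any other.

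Nt5e region 5 lay 1040 bp further on and had a peak in 11 libraries. Percentiles there were 71.9, 78.2 and 73.2 in WT Treg, 77.2 and 76.7 in KO Treg replicates 1 and 3, 57.3, 67.5 and 43.9 in WT Tconv, and 49.9, 58.1 and 49.97 in KO Tconv. The groups again did not overlap between cell types, and KO Treg replicate 2 had no peak.

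Because percentiles in lists of unequal length cannot be compared, the 11 longer lists were limited to their 21269 strongest peaks each, a step chosen after seeing the data. A peak in all 11 was then found in 13087 regions, among them 8 of the 27 members. In these lists the mean percentile of Nt5e region 4 was 68.0 ± 7.07 in Treg (SD, n = 5) and 28.8 ± 13.5 in Tconv (SD, n = 6), a difference of 40.2 when averaged within genotype. For Nt5e region 5 the means were 71.0 ± 2.70 and 48.6 ± 8.36, a difference of 22.7. Of all 13087 regions, 3.35% ranked higher in every Treg than in every Tconv library and 2.94% the other way. Among the 8 members, Nt5e regions 4 and 5 did the former and 0 the latter.

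The exact permutation test of cell type within genotype gave p = 0.005 for Nt5e regions 4 and 5 (two-sided, n = 5 and 6), the smallest that its 200 labelings allow. Adjusted over the 13087 regions it was 0.0805, and this test passed 0 regions at 0.05, with 2925 at an unadjusted p under 0.05. limma on normal scores of the same percentiles, with genotype as a term, passed 3.68% of all regions as higher in Treg and 4.07% as higher in Tconv. Nt5e regions 4 and 5 were the members that passed, with limma adjusted p of 0.00334 and 0.0138. The call thus held in limma and missed the threshold in the permutation test. Within WT alone the limma adjusted p was 0.0928 and 0.233, and within KO alone 0.123 and 0.188.

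**Figure D2:**
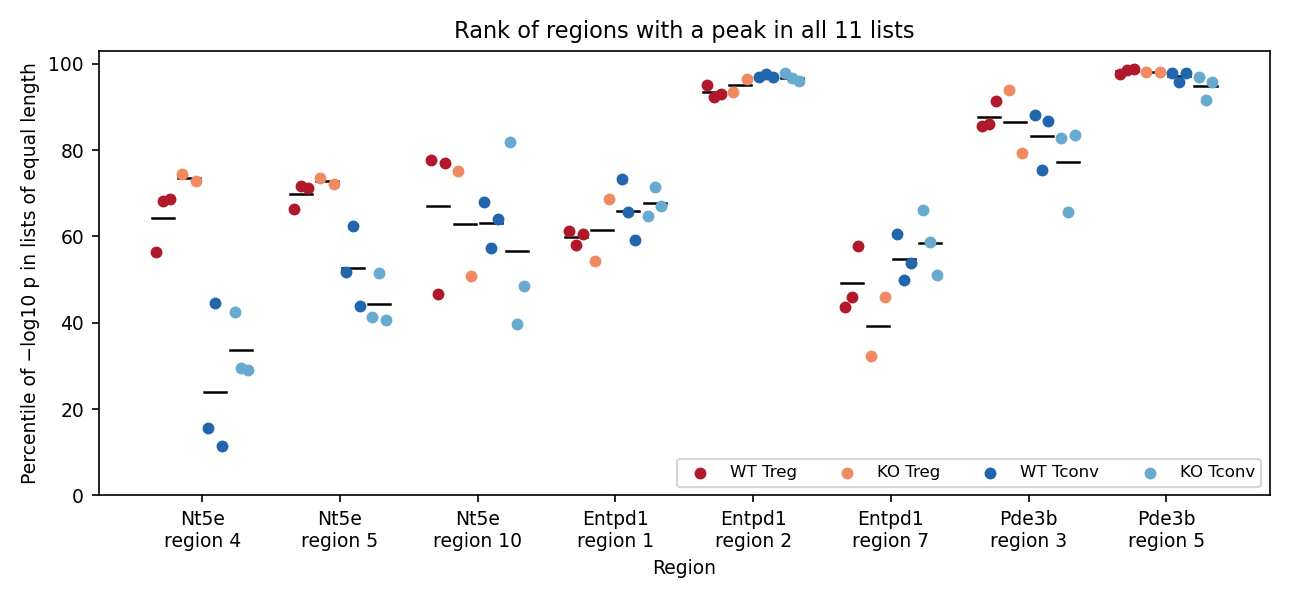
Points give the percentile of −log10 p in lists limited to equal length, for the 8 regions with a peak in all 11 lists, by group, and horizontal lines give group means. Treg points lie above all Tconv points in Nt5e regions 4 and 5, and overlap with Tconv points in the other 6 regions.

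The fold over background did not part the cell types in these regions. In Nt5e region 4 it ran from 4.58 to 5.19 in the 5 Treg libraries and from 4.11 to 5.25 in Tconv. In region 5 it ran from 4.62 to 5.18 in Treg and from 4.60 to 6.09 in Tconv, and the highest folds, 5.95 and 6.09, were in WT Tconv replicates 1 and 2. The −log10 p of the same peaks ran from 17.3 to 21.8 in Treg and from 10.1 to 16.4 in Tconv. The 2 measures of the same peaks thus ordered the libraries differently. The −log10 p grows with depth, which is unknown, and how the fold depends on it was not tested. These ranges are therefore description only.

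**Figure D3:**
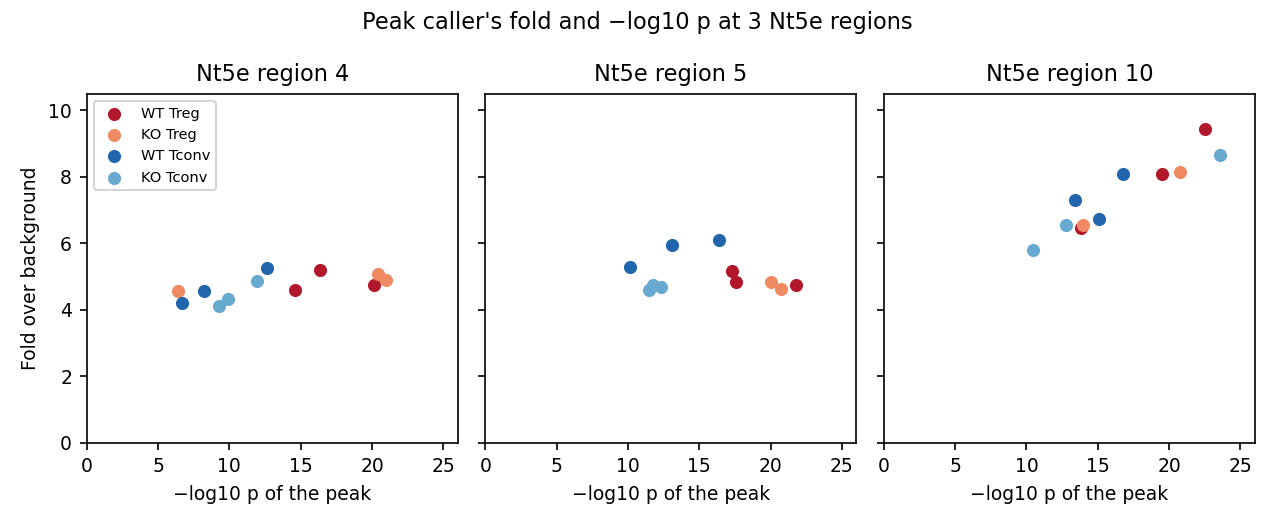
Each point is 1 library, with the peak caller's −log10 p on the horizontal axis and its fold over background on the vertical axis, for 3 Nt5e regions. Treg points other than KO Treg replicate 2 lie to the right of Tconv points in regions 4 and 5 at similar folds, while in region 10 fold and −log10 p rise together and the cell types are mixed.

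Nt5e region 6 was the member called Treg-enriched. WT Treg had it in 3 of 3 libraries, KO Treg in replicates 1 and 3, and Tconv in 0 of 6 (Fisher's exact p = 0.0152, adjusted p = 0.224 over all regions). Its peaks were weak, with percentiles of 34.4, 2.24 and 20.9 in WT Treg and 7.46 and 27.5 in KO Treg. Fold over background was 3.75, 2.69 and 3.68 in WT Treg and 2.997 and 3.29 in KO Treg, each under the lowest fold of any other member region in any library, 3.78. With peaks limited to a −log10 q of at least 5, or with peaks required to cover 50% of the region, it was no longer called.

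The same pattern, 5 Treg libraries without KO Treg replicate 2 and no Tconv library, was shared by 994 of 32787 regions (3.03%). The strongest of these by mean percentile outside the windows were chr16:33606781-33607472, chr9:7509727-7510448 and chr13:4770580-4771129.

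The remaining Nt5e regions did not set the cell types apart in every library. Region 10, from 88274832 to 88275653, was the strongest Nt5e region in 4 of 6 Tconv lists. It was also the strongest in WT Treg replicates 1 and 3 and in KO Treg replicate 1. It had percentiles of 81.4, 58.9 and 78.5 in WT Treg, 78.6 and 58.8 in KO Treg replicates 1 and 3, 71.7, 63.0 and 64.01 in WT Tconv, and 84.4, 47.9 and 56.6 in KO Tconv. Treg and Tconv overlapped there, with a difference of 5.17 in equal lists (exact permutation p = 0.605, adjusted 0.786).

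A pair of weaker Nt5e regions leaned to opposite sides and were picked out after their values were seen. Region 8, from 88251655 to 88252410, had a peak in 5 Treg libraries and in 3 Tconv libraries, at percentiles of 14.7 to 33.5 in Treg and 3.08 to 12.8 in Tconv. The share of all regions with such an order among called peaks was not counted. Region 9, from 88257049 to 88257567, had a peak in 0 of 6 Treg and 4 of 6 Tconv libraries (Fisher's exact p = 0.0606, adjusted p = 0.549), at percentiles of 56.7 and 40.1 in WT Tconv replicates 1 and 2 and 32.7 and 33.0 in KO Tconv replicates 1 and 3. A lead of at least 4 libraries was found in 6.26% of all regions for Treg and in 6.38% for Tconv. Among members it was found in 2 of 22 for Treg, Nt5e region 6 and Entpd1 region 4, and in 1 for Tconv, Nt5e region 9. Without KO Treg replicate 2 these were the members called again, beside 6.21% of all regions for Treg and 6.4% for Tconv. That library had no peak in these members, so leaving it out could not change their leads. The other 5 Nt5e regions had a peak in 1 library each, at percentiles between 7.45 and 28.6.

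The window of Entpd1, the gene of the enzyme that starts the breakdown of extracellular ATP, held open regions in both cell types. Region 2, from 40686402 to 40687103 on chromosome 19, was its strongest. Percentiles were 95.9, 94.0 and 93.6 in WT Treg, 94.3, 25.4 and 97.1 in KO Treg, 97.4, 97.9 and 96.9 in WT Tconv, and 98.1, 97.0 and 96.7 in KO Tconv. It was among the strongest peaks of every list but that of KO Treg replicate 2, and the cell types overlapped. In equal lists the Treg minus Tconv difference was −2.77 (exact permutation p = 0.02, adjusted p = 0.137; limma adjusted p = 0.112), which did not pass.

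Entpd1 regions 1 and 7 followed in strength. Region 1, from 40662515 to 40664246, had percentiles of 67.6, 67.6 and 63.3 in WT Treg, 60.5 and 73.7 in KO Treg replicates 1 and 3, 76.3, 70.1 and 59.2 in WT Tconv, and 69.9, 75.3 and 72.3 in KO Tconv. Region 7, from 40782384 to 40783374, had percentiles of 52.7, 58.4 and 60.7 in WT Treg, 41.7 and 54.8 in KO Treg replicates 1 and 3, 65.0, 56.7 and 53.9 in WT Tconv, and 70.9, 64.3 and 58.8 in KO Tconv. In equal lists the Treg minus Tconv difference was −6.18 for region 1 (exact permutation p = 0.1, adjusted 0.303) and −12.6 for region 7 (p = 0.03, exact permutation, adjusted 0.164). Treg and Tconv overlapped in both.

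Within single lists, the order of some pairs of Nt5e and Entpd1 regions changed with the cell type. Nt5e region 4 ranked above Entpd1 region 7 in 5 of the 5 Treg lists with both peaks and in 0 of 6 Tconv lists. Nt5e region 5 ranked above Entpd1 region 7 in 5 of 5 Treg and 1 of 6 Tconv lists. Against Nt5e region 10, Nt5e region 4 ranked higher in 2 of 5 Treg and 0 of 6 Tconv lists, and Nt5e region 5 in 2 of 5 and 2 of 6. All these pairs were chosen after their values were seen and rest on the percentiles already given. The order was not tested, and the share of all pairs with such a change was not counted.

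Entpd1 region 4, from 40734162 to 40736031, was the Entpd1 region with the largest lead of Treg libraries, and is named for that reason. It had a peak in 5 Treg libraries and 1 Tconv library (Fisher's exact p = 0.0801, adjusted p = 0.634), short of the rule. Its percentiles were 30.5, 47.0 and 43.2 in WT Treg, 2.58 and 48.4 in KO Treg replicates 1 and 3, and 41.5 in KO Tconv replicate 3. Peaks covered 1692, 1596 and 763 bp of its 1870 bp in WT Treg, 686 and 1796 bp in KO Treg and 942 bp in the Tconv library.

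The other Entpd1 regions were weaker. Regions 5 and 8 had peaks in all 11 longer lists, at percentiles of 29.7 to 44.3 and 15.2 to 42.4 in Treg and 10.4 to 29.5 and 30.1 to 60.6 in Tconv. In equal lists, Entpd1 region 5 had no peak in WT Tconv replicate 2, and the cell types overlapped among the libraries with a peak: WT Treg replicate 2 at 14.4 and KO Treg replicate 3 at 17.4 lay under WT Tconv replicates 1 and 3 at 20.4 and 18.9. Region 6 had peaks in 4 Treg and 2 Tconv libraries, and region 9 in 1 Treg and 3 Tconv. Regions 3 and 10 had peaks in 2 Treg libraries each and in no Tconv library, and region 11 in 2 Treg and 3 Tconv libraries.

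The window of Pde3b, the gene of a phosphodiesterase that removes cyclic AMP, had 2 regions among the strong peaks of both cell types. It had 1 region that leaned to Tconv. Region 5, from 121705850 to 121706802 on chromosome 7, had the highest mean percentile of all members over all 12 libraries (95.5) and in Treg, while in Tconv Entpd1 region 2 was higher (97.3 against 96.5). Percentiles were 98.1, 98.8 and 98.9 in WT Treg, 98.3, 74.4 and 98.4 in KO Treg, 98.0, 96.3 and 97.8 in WT Tconv, and 97.4, 92.8 and 96.5 in KO Tconv. It lay 67906 bp beyond region 4, in the outer part of the window. In equal lists its Treg minus Tconv difference was 2.25 (exact permutation p = 0.06, adjusted p = 0.232), and the cell types overlapped.

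Pde3b region 3, from 121622656 to 121624071, had percentiles of 87.9, 89.3 and 92.0 in WT Treg, 94.8 and 82.6 in KO Treg replicates 1 and 3, 89.5, 78.6 and 86.6 in WT Tconv, and 85.3, 70.3 and 86.1 in KO Tconv. Treg and Tconv overlapped, with a difference of 6.81 in equal lists (exact permutation p = 0.245, adjusted p = 0.488).

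Pde3b region 4, from 121637409 to 121637943, had a peak in all 6 Tconv libraries and in 3 of 6 Treg libraries (Fisher's exact p = 0.182, adjusted p = 0.993), so presence did not pass. Where peaks were called they ranked lower in Treg. Percentiles were 36.8 and 28.7 in WT Treg replicates 2 and 3 and 14.9 in KO Treg replicate 3, against 56.6, 61.7 and 76.5 in WT Tconv and 49.7, 65.9 and 61.7 in KO Tconv. Fold over background ran from 4.73 to 5.68 in Treg and from 6.61 to 8.91 in Tconv. By both measures the 3 Treg peaks lay under all 6 Tconv peaks. This was not tested, since Treg libraries without a peak have no rank, and the share of all regions with such an order was not counted. The exact pattern of presence of Pde3b region 4 over the 12 libraries, whatever the order of its peaks, was shared by 40 regions (0.122%). The strongest 3 of these outside the windows were chr3:75534654-75535676, chr3:75804865-75805563 and chr6:129557989-129559301. An exact pattern can be rare without any lean to a cell type, so this share is no background for the lean to Tconv. That of Entpd1 region 6, with peaks in 4 Treg and 2 Tconv libraries, was shared by 8 regions (0.0244%). The share of all regions with a lead of at least 3 Tconv libraries was not counted.

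Pde3b regions 1 and 2 were weak. Region 1, from 121558075 to 121561142, had a peak in 11 libraries at percentiles of 14.6 to 19.7 in Treg and 4.38 to 39.0 in Tconv. Region 2 had a peak in 1 Treg and 3 Tconv libraries.

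Counted over a whole window, the number of regions with a peak did not differ between Treg and Tconv beyond the spread of libraries. The Entpd1 window had 8, 11 and 7 regions with a peak in WT Treg, 8, 1 and 7 in KO Treg, 6, 7 and 6 in WT Tconv, and 5, 6 and 9 in KO Tconv. The Nt5e window had 5 in each WT Treg library, 5, 1 and 5 in KO Treg, 5, 4 and 3 in WT Tconv, and 5, 4 and 4 in KO Tconv. The Pde3b window had 3, 4 and 4 in WT Treg, 3, 1 and 5 in KO Treg, 4, 4 and 5 in WT Tconv, and 5, 5 and 4 in KO Tconv.

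The mean difference of Treg minus Tconv was 0.50 regions for Entpd1 (exact permutation p = 0.825, two-sided, 400 labelings), 0.167 for Nt5e (exact permutation p = 1.0) and −1.17 for Pde3b (exact permutation p = 0.16). Without KO Treg replicate 2 the differences were 1.58 (exact permutation p = 0.18), 0.833 (p = 0.08, exact permutation) and −0.667 (p = 0.25, exact permutation). These are 3 of 9 comparisons of region counts, and the p-values are unadjusted. For Pde3b, p was 0.03 by exact permutation with peaks of a −log10 q of at least 5 (difference −1.17), and 0.03 without KO Treg replicate 3 (difference −1.67). Both settings kept KO Treg replicate 2, which had a peak in 1 Pde3b region, and neither was run without it.

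**Figure D4:**
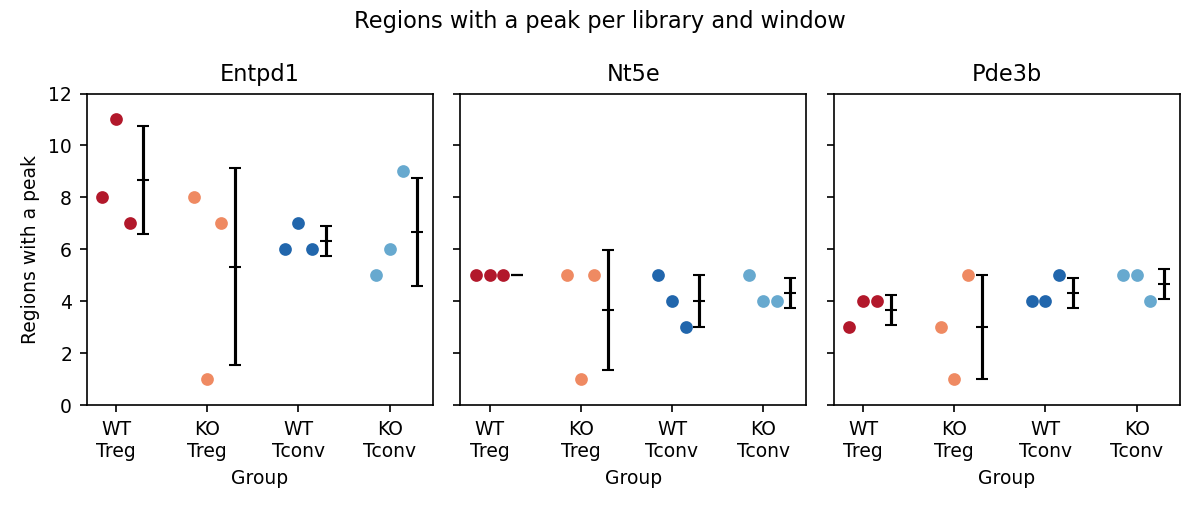
Points give the number of regions with a peak in each library, by window and group, in order of replicate, and bars to the right give the mean and SD (n = 3). KO Treg replicate 2 is the point at 1 in each window, and the other KO Treg libraries lie between 3 and 8.

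KO against WT addresses whether open chromatin in these windows depends on the Lrrc32 enhancer. No member region was lost or gained in KO in either cell type, by the rule of a peak in 3 of 3 libraries against 0 of 3. The shares of all regions were 0.973% lost and 0.0305% gained in Treg, and 0.189% lost and 0.793% gained in Tconv. Without KO Treg replicate 2 the counts of members were also 0, beside 0.977% lost and 1.08% gained in Treg and 0.189% lost and 0.794% gained in Tconv. A region with 3 against 0 libraries has a Fisher's exact p of 0.1, so no such region could pass 0.05.

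Region counts per window did not differ between genotypes beyond the spread of libraries. In Tconv the KO minus WT difference was 0.333 regions for each gene (exact permutation p = 1.0, n = 3 per group). In Treg it was −3.33 for Entpd1 (exact permutation p = 0.5), −1.33 for Nt5e (exact permutation p = 1.0) and −0.667 for Pde3b (exact permutation p = 0.8). Without KO Treg replicate 2 the Treg differences were −1.17, 0.00 and 0.333, which moved each of them by more than 1.5 times and turned the sign for Pde3b. The smallest p with 3 against 3 libraries is 0.1. The Treg minus Tconv difference was not shown to differ between genotypes, with a KO minus WT change in that difference of −3.67 regions for Entpd1 (exact permutation p = 0.3), −1.67 for Nt5e (p = 0.5, exact permutation) and −1.0 for Pde3b (p = 0.65, exact permutation). Without KO Treg replicate 2 these were −1.5, −0.333 and 0.0 (exact permutation p of 0.51, 1.0 and 1.0).

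Nt5e regions 4 and 5 ranked higher in both remaining KO Treg libraries than in all 3 WT Treg libraries. In equal lists region 4 stood at 74.4 and 72.7 in KO and at 56.3, 68.1 and 68.6 in WT. Region 5 stood at 73.5 and 72.2 in KO and at 66.4, 71.7 and 71.2 in WT. Such an order was found in 10.2% of the 13087 regions, and the reverse in 11.3%, against 2 and 0 of the 8 members. In Tconv 7.86% of regions ranked higher in every KO library and 5.4% in every WT library, against 0 of the 8 members each. With 3 libraries against 2 the orders within Treg were not tested.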

How the data were processed

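The data were 12 deposited lists of broad peaks, 1 per library. Per the submitters' processing notes the tools were MACS2, Bowtie2, DESeq2, DiffBind and Trim Galore 0.4.4, whose roles are not stated, and the build was NCBIM37. Control input, read filters and any shift of cut sites are not given either. Each deposited peak carries a score, a fold ratio over background, and a −log10 p and −log10 q from the authors' peak caller. The −log10 p and −log10 q grow with depth, and how the score and the fold depend on it was not tested. The tests therefore used presence or percentiles in lists of equal length. Folds, −log10 p and percentiles of full lists were also set side by side between libraries, as description only. The lowest −log10 p was about 5 in each list, so a region just under that limit reads as absent.

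The members, lists and tests were chosen with earlier results of these data known. An overlap of 1 bp with a peak counted as presence, and tests covered the regions present in 2 or more libraries. Named regions are those that met a call and the 3 of highest mean percentile per window. Permutation tests were exact and two-sided. The rank comparison in equal lists and limma were added after seeing the data. The enrichment calls were run on simulated regions present in every library of a cell type and in none of the other, which the rule must call. The permutation test of cell type and limma were run on values simulated from normal noise. These runs check the code and do not show how the methods perform on these lists. The list of other pathway genes and the cell type markers were not run on peaks, for lack of an annotation of NCBIM37. Coordinates are 1-based. Software was limma 3.58.1 (R 4.3.3), scipy 1.17.1, pandas 2.3.3, numpy 2.4.6 and matplotlib 3.10.9 (Python 3.11.15).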

Additional observations from a re-analysis of the deposited data

How the results depend on the processing

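The cause of changes was not tested except where the setting itself shows it. Nt5e had 1 Treg-enriched region in the main setting and 0 with a −log10 q of at least 5, with equal lists of 5262 or (without KO Treg replicate 2) 21269 peaks, at 50% coverage and at 6 against 0 libraries. Counts of 0 in the main setting became 1 for Entpd1 Treg-enriched (difference of at least 4), Entpd1 Tconv-enriched (50% coverage), Nt5e Tconv-enriched (difference of at least 4, and equal lists without KO Treg replicate 2) and Pde3b Tconv-enriched (the latter), and 2 for Entpd1 regions lost in KO Treg (at least 2 against 0). The Entpd1 Treg minus Tconv region count was −0.50 with a −log10 q of at least 5 and −0.0833 in equal lists without KO Treg replicate 2. KO minus WT in Tconv was −0.333 for Entpd1 at 50% coverage and −0.333 for Pde3b in both kinds of equal lists. KO minus WT in Treg was 0.50 for Nt5e in equal lists without KO Treg replicate 2. The Pde3b Treg minus Tconv count kept −1.17 with a −log10 q of at least 5 and KO Treg replicate 2 included, with an exact permutation p of 0.03. Regions with every Treg above every Tconv list numbered 1 for Entpd1 and 1 for Pde3b in full lists, 1 for Pde3b and 1 for Nt5e with a −log10 q of at least 5, and 0 for Nt5e in all 12 full lists. Treg minus Tconv libraries turned to 1 for Entpd1 region 7 at 50% coverage and for Nt5e region 10 in lists of 5262 peaks.

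Leaving out each library, with the lead of libraries for a call lowered by 1, gave 0 to 1 regions for Entpd1 Treg-enriched, Entpd1 lost in KO Treg, Nt5e Tconv-enriched, Pde3b Tconv-enriched, Entpd1 with Tconv ranked above Treg, and Pde3b with Treg ranked above Tconv. It gave Treg minus Tconv counts of −0.50 to 1.58 (Entpd1), −0.167 to 0.833 (Nt5e) and −1.67 to −0.667 (Pde3b), KO minus WT in Tconv of −0.833 to 1.17 (Entpd1) and −0.167 to 0.833 (Nt5e), and KO minus WT in Treg of −1.67 to 0.333 (Pde3b). Nt5e kept 1 Treg-enriched region and 2 regions ranked higher in Treg in each of these settings. Neither count could fall here, so keeping them is no test of stability. The lead needed for a call was lowered with the library left out, and cell types without overlap stay apart with fewer lists. The differences ran from 37.0 to 45.3 for region 4 and from 20.5 to 25.2 for region 5 (exact permutation adjusted p 0.111 to 0.143 for both). The Nt5e region 10 percentile difference ran from −0.940 (without KO Treg replicate 1) to 11.5. Over 33 results and 666 alternatives, 40 counts moved, 14 differences took the opposite sign and 2 newly passed the test. The other 610 did none of these, but they include differences that fell to 0. Examples are Entpd1 KO minus WT in Treg and Pde3b Treg minus Tconv in equal lists of 5262 peaks. For 10 named regions, the Treg minus Tconv number of libraries was followed through 160 further alternatives. It moved in 125, took the opposite sign in 2 and stayed the same in 33. Leaving out a library can by itself shift this number by 1.

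Replicate numbers were not shown to pair the samples, though the titles number the Treg and Tconv libraries of each genotype alike. Deviations of same-numbered Treg and Tconv libraries correlated at 0.0283, 0.0152 and 0.0608 in WT and at 0.00841, −0.0283 and −0.00635 in KO. The KO values include KO Treg replicate 2. Over both genotypes, 6 of 12 libraries correlated best with their own number. The replicate block was run for the differences in region counts only. Enrichment calls, the rank comparison and limma were not tested with it. With the block the Treg minus Tconv count was 0.50 (exact permutation p = 0.813) for Entpd1. It was 0.167 (p = 1.0, exact) for Nt5e and −1.17 (p = 0.25, exact) for Pde3b. The KO minus WT differences under the block were −3.33, −1.33 and −0.667 in Treg and 0.333 in Tconv, each with an exact p of 1.0.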

Other observations

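Promoters of other adenosine and cyclic AMP genes were read for the same element. Of a list of 35 genes (among them the adenosine receptors, adenylate cyclases, protein kinase A subunits and other phosphodiesterases), 29 matched the promoter table, with 63 promoters. TGACG was found on either strand in 19 of these (30.2%), beside 20.8% of all promoters, and the full element in 2 (3.17%), both of Prkar1a, which encodes a regulatory subunit of protein kinase A, beside 1.79%. Promoters of the same gene were counted separately, and the shares were not tested against each other.

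Within the lists, Entpd1 region 2 ranked above Pde3b region 5 in 0 of 6 Treg lists and in 4 of 6 Tconv lists. Pde3b region 3 ranked under Pde3b region 5 in every list with both. Pde3b region 4 ranked above Entpd1 region 8 in 1 of the 3 Treg lists with both and in 6 of 6 Tconv lists. These pairs were chosen after their values were seen, and the share of all pairs with such orders was not counted.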
